A study of Mus musculus with 40 samples.

Results

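The tubulin isotypes comprised 10 genes, the α-tubulins *Tuba1a*, *Tuba1b* and *Tuba1c* and the β-tubulins *Tubb2a*, *Tubb2b*, *Tubb3*, *Tubb4a*, *Tubb4b*, *Tubb5* and *Tubb6*. They were chosen by symbol, after the Ensembl identifiers of the authors' count table had been matched to GENCODE M21 names, and all 10 were found among its 55487 genes. From general knowledge, *Tuba1a*, *Tubb2a*, *Tubb2b*, *Tubb3* and *Tubb4a* were taken as the 5 neuronal isotypes and the remaining 5 as general isotypes, expressed in most cells. Bulk RNA-seq counts came from 40 libraries of ES-astrocytes and ES-motor neurons, both differentiated from a mouse ES cell line that carries eGFP under the motor neuron promoter Hb9 and goes back to B6.Cg-Tg(Hlxb9-GFP)1Tmj/J mice. In every group ES-astrocytes had been matured with forskolin, sorted ES-motor neurons had been placed on top, and FACS for eGFP had separated the co-culture again, with about 200 cells per sample. Before that the ES-astrocytes had been left as control or exposed for 24 h to IL-1α with TNF-α, C1Q with C5, IL-1β with IL-6, or TGF-β2. Each of the 5 treatments was represented by 4 replicates of each cell type, lettered A to D and started from separate vials of a defined passage. All groups rest on this single ES line, and the ES-astrocyte fraction was defined by the absence of eGFP, so that it could hold any other eGFP-negative cell of the culture.

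Microtubules are polymers of paired α- and β-tubulin, and mammals encode both chains in families of genes whose proteins resemble each other closely except at the carboxy-terminal tail, where most enzymes that modify tubulin act. *Tubb3*, class III β-tubulin, is widely used to identify neurons, *Tuba1a* and *Tubb2b* are abundant in newly born neurons, and *Tuba1b*, *Tubb4b* and *Tubb5* serve many cell types. Cells also regulate tubulin mRNA themselves, since the ribosome-associated factor TTC5 recognises emerging tubulin chains and triggers decay of the mRNA when free tubulin is in excess.

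Total counts lay between 1510823 and 16054290 in the 20 ES-astrocyte libraries (median 4670241.5) and between 6557 and 19717324 in the 20 ES-motor neuron libraries (median 1213482). Less than 20% of the median over all libraries (2459460.5) was reached by 9 of them, all of ES-motor neurons: control C, the 4 libraries of IL-1α with TNF-α, C1Q with C5 A, IL-1β with IL-6 B and D, and TGF-β2 A. Levels are given as CPM, the counts of a gene relative to the TMM-scaled total of its library, TMM being the scaling of edgeR. Where a gene had 0 counts, its level was taken to be at most that of 3 counts, a limit that stood for 0.230 to 2.04 CPM in ES-astrocytes and for 0.153 to 202 CPM in ES-motor neurons, and that covers counting error only. By the authors' sample sheet, control and IL-1α with TNF-α were on plate 1 and the other 3 stimuli on plate 2, so that for those 3 plate and stimulus cannot be told apart. The index primers likewise divided along cell type and cannot be told apart from it.

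Some libraries stood apart by the number of genes they held at equal depth. When the 38 libraries large enough were thinned to 100000 counts, 5 ES-astrocyte libraries (control A, IL-1α with TNF-α B, C1Q with C5 B and D, and TGF-β2 A) held 9346 to 9599.6 genes and the other 15 held 7128 to 8853. Likewise 2 ES-motor neuron libraries (IL-1α with TNF-α A and IL-1β with IL-6 A) held 9241 and 9099 genes against 6994 to 8373 in the other 16. These 7 libraries, set apart by a cut of 9000 genes chosen on the data and not by the labels, differed from the others in several isotypes, and results that move with them are given with and without them.

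*Tubb5*, the β-tubulin of most cell types, supplied most of the tubulin mRNA per length at the median of both cell types, with 82.9% in ES-astrocytes but 79.0% in the ES-motor neurons, and *Tuba1a* was the most abundant α-tubulin. Together the 10 genes took 0.577%, 1.02% and 1.30% of all counts in ES-astrocytes (lowest, median and highest library) and 0.964%, 1.48% and 2.22% in ES-motor neurons. On the scale of CPM per kb of exon, the one on which levels of different isotypes are compared here (markers are named by CPM), *Tubb5* had a median of 2879.8 in ES-astrocytes and one of 3506 in ES-motor neurons. *Tuba1a* came next with medians of 360.3 and 760.3 CPM per kb. *Tubb5* stood above *Tuba1a* in 19 of 20 ES-astrocyte and 18 of 20 ES-motor neuron libraries, although the ranges of the pair overlapped.

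*Tubb3* held the third place, with medians of 114 and 191 CPM per kb of exon in ES-astrocytes and ES-motor neurons, and lay under *Tuba1a* in all 40 libraries. *Tuba1b*, a widely expressed α-tubulin, was the fourth in both cell types, with medians of 71.4 and 38.3 CPM per kb, and lay under *Tubb3* in 19 ES-astrocyte and 20 ES-motor neuron libraries. From the fifth place on, the order of the medians differed between the cell types. In ES-astrocytes it ran *Tubb4b* (30.2), *Tubb4a* (21.7), *Tubb2a* (14.5), *Tubb2b* (9.39), *Tubb6* (5.25) and *Tuba1c* (1.51 CPM per kb). In ES-motor neurons it ran *Tubb4a* (31.1), *Tubb2a* (28.0), *Tubb4b* (18.7), *Tubb2b* (13.8), *Tubb6* (0.0723) and *Tuba1c* (0 CPM per kb). Every pair of neighbours in either order had overlapping ranges over the 20 libraries, and in ES-motor neurons *Tuba1b* stood above *Tubb4a* in 10 of 20 libraries, so that this pair had no order beyond its spread.

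The counts of several isotypes are uncertain, because the genes resemble each other and how the authors' counting treated reads that match more than 1 gene is not stated in the methods or labels. The coding sequences of *Tuba1a* and *Tuba1b* were 98.3% identical and those of *Tubb2a* and *Tubb2b* 96.5%, whereas all other pairs of β-tubulins were 80.2% to 86.0% identical. Of all stretches of 75 bases in the exons, 31.8% were unique to *Tuba1a*, 28.1% to *Tuba1b*, 43.3% to *Tuba1c*, 56.8% to *Tubb2a*, 67.8% to *Tubb2b* and 62.2% to *Tubb4b*. For *Tubb3*, *Tubb4a*, *Tubb5* and *Tubb6* that share was 100%, so that their counts could be told apart in full at this length. The predicted gene *Gm49450* runs on the same strand over 26.2% of the exon bases of *Tuba1a* and 22.7% of those of *Tuba1b*, and held 79621 counts over the 40 libraries, against 314891 and 22780 for the tubulins. Of its counts 37053 lay in 1 library, ES-motor neurons with IL-1β and IL-6 A. *Gm49450* read 9.07, 52.8 and 951 CPM in ES-astrocytes (lowest, median, highest) and 34.6, 119 and 4431 CPM in ES-motor neurons, and how its reads were divided from those of the 2 tubulins is not known.

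The last 75 coding bases of 6 β-tubulins, the stop codon included, are shown because they encode the carboxy-terminal tail and show at which bases reads could separate these isotypes. They come from the GENCODE M21 transcripts on GRCm38 and lie in the last coding exon, at chr17:35834982-35835056 (minus strand) for *Tubb5*, chr8:123421608-123421682 (plus strand) for *Tubb3*, chr17:57080690-57080764 (minus strand) for *Tubb4a*, chr13:34074468-34074542 (minus strand) for *Tubb2a*, chr13:34127471-34127545 (minus strand) for *Tubb2b* and chr2:25222308-25222382 (minus strand) for *Tubb4b*. Capitals mark the bases that differ from *Tubb5* after alignment, which were 32 in *Tubb3*, 20 in *Tubb4b*, 18 in *Tubb2b*, 16 in *Tubb2a* and 10 in *Tubb4a*.
Tubb5: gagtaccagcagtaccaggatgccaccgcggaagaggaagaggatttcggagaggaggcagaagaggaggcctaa
Tubb3: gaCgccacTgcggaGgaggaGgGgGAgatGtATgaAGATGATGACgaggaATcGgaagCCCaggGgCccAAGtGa
Tubb4a: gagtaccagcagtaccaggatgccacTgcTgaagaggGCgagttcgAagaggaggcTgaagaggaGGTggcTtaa
Tubb2a: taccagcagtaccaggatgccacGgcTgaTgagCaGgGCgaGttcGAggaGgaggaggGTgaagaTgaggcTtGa
Tubb2b: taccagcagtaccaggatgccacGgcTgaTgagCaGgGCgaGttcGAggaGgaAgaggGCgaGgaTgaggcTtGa
Tubb4b: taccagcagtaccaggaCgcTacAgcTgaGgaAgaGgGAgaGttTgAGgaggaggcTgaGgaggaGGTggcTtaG

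The cell types were compared over all treatments, to ask which isotypes distinguish ES-motor neurons from the ES-astrocytes they were grown on. All 5 neuronal isotypes had higher median levels in ES-motor neurons within each of the 5 treatments, and 4 of the 5 general isotypes, all but *Tubb5*, had lower medians there within each treatment. In the quasi-likelihood test of edgeR with Benjamini-Hochberg adjustment, 2 of the 10 isotypes passed both thresholds (adjusted p of at most 0.05 and a log2 fold change beyond 1 in size), where 14.9% of the 13227 genes tested did (1972 genes, of which 511 were higher in ES-motor neurons and 1461 lower). This count depended on single libraries. Leaving out 1 library gave 2 to 6 of the 10, with 6 of them without ES-astrocyte control A, where 14.7% of the genes tested were called, so that the count is given as no result about the isotypes as a group. An unadjusted p under 0.05 was reached by 9 of the 10 isotypes and by 3762 of the 13227 genes. The median log2 fold change was 0.87 for the neuronal and −0.70 for the general isotypes, against −0.21 for all genes tested. In bulk samples such as these, fewer cells of a type and less RNA per cell cannot be told apart.

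**Figure D1:**
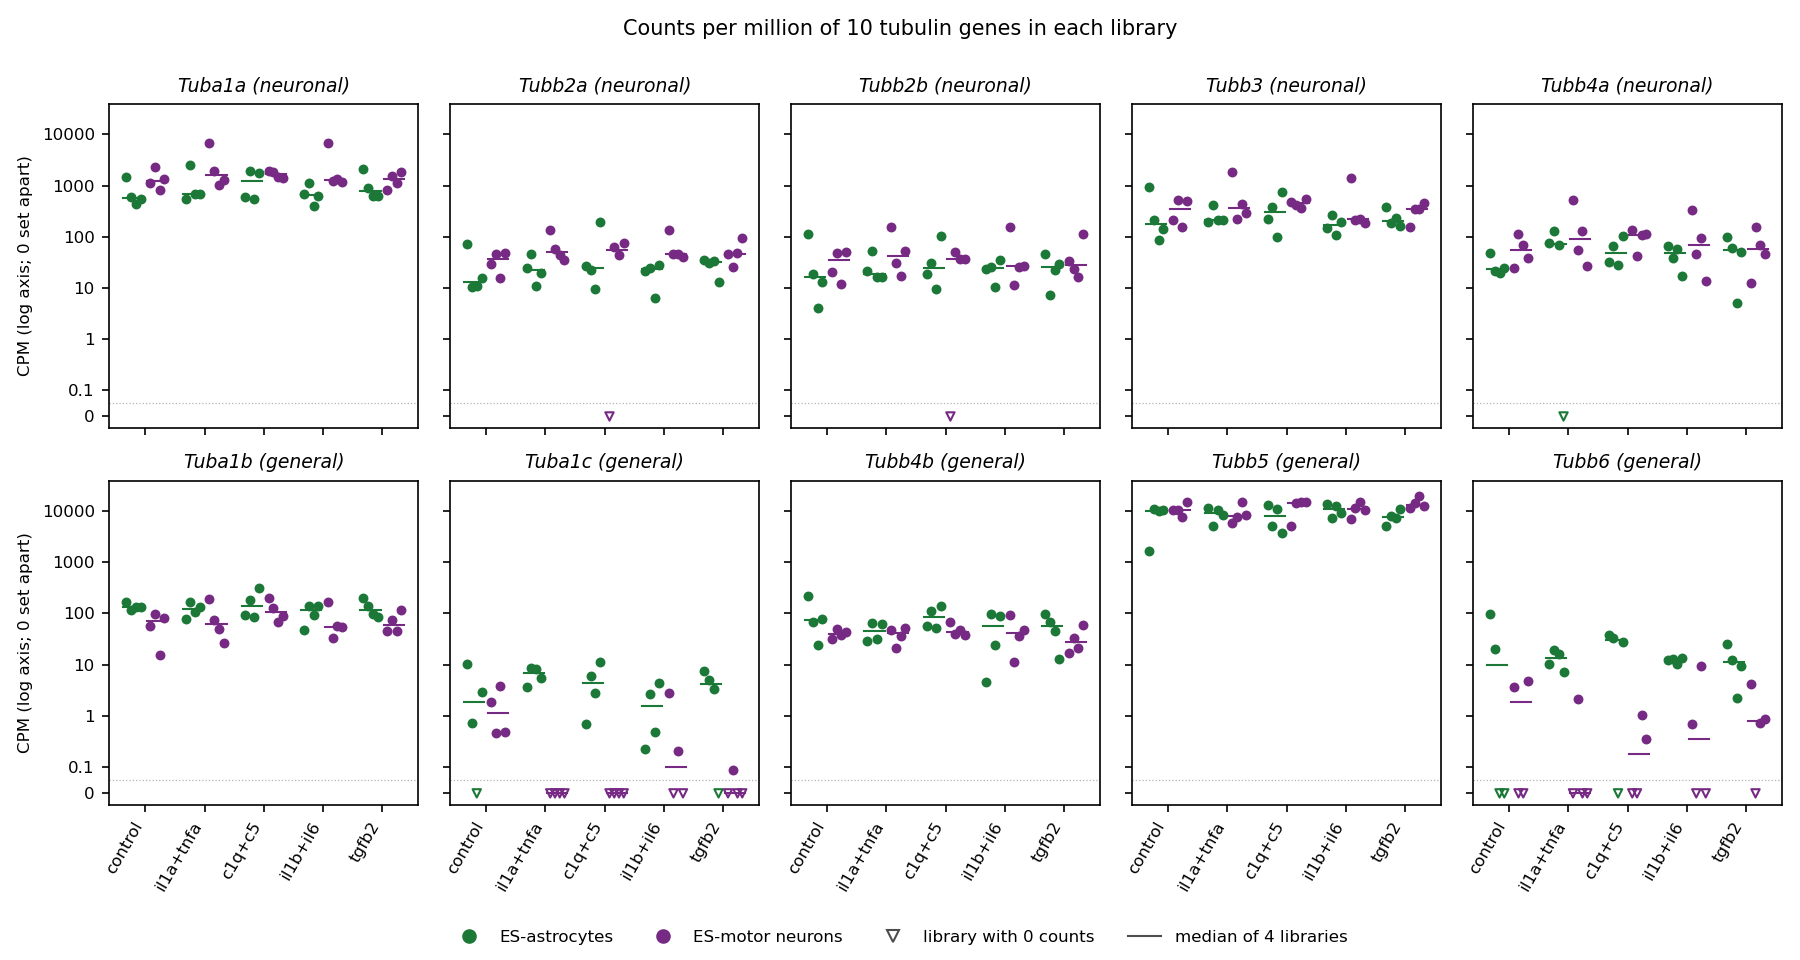
Levels of the 10 tubulin genes in CPM (vertical log axis, with libraries of 0 counts set apart as open triangles) by treatment (horizontal axis), each point a library and each bar the median of 4. *Tubb6* and *Tuba1c* are at 0 in 10 and 13 of 20 ES-motor neuron libraries, while *Tubb5* lies at 1694 CPM or more in all 40.

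*Tubb6*, a broadly expressed β-tubulin (ENSMUSG00000001473, chr18:67390717-67402749, plus strand), was lower in ES-motor neurons. It read 0, 12.8 and 96.5 CPM in ES-astrocytes (lowest, median and highest of 20) and 0, 0.176 and 9.36 CPM in ES-motor neurons. With values of 0 taken as they are, all 20 ES-motor neuron libraries lay below the ES-astrocyte median and 15 ES-astrocyte libraries lay above every ES-motor neuron library. The other 5 ES-astrocyte libraries, 3 of them at 0, lay within the ES-motor neuron range. Summed over libraries it had 2567 counts in ES-astrocytes but 78 in the ES-motor neurons, of which 47 were in IL-1β with IL-6 C alone. The log2 fold change was −3.62 (SE 0.81, adjusted p = 0.000689 by the quasi-likelihood test of edgeR with Benjamini-Hochberg adjustment), and −4.21 without that library (adjusted p = 0.000133 by edgeR). *Tubb6* passed the filter on low counts through ES-astrocytes, the group where it was high, so that the test is given as a description. With no filter the log2 fold change was −3.65 (adjusted p = 0.000773 by edgeR). Of the 10 ES-motor neuron libraries at 0, 5 were deep enough for their limit to lie under the ES-astrocyte median, among them control B with a limit of 0.153 CPM and TGF-β2 B with 0.257 CPM.

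Within the treatments, *Tubb6* read 96.5, 19.9, 0 and 0 CPM in control ES-astrocytes (replicates A to D, the order used for all values below) and 3.61, 0, 0 and 4.77 CPM in control ES-motor neurons. With IL-1α and TNF-α it read 10.4, 19.4, 16.1 and 7.01 CPM in ES-astrocytes and 0, 2.15, 0 and 0 CPM in ES-motor neurons. The control ES-astrocyte replicates ran from the highest value of all libraries to 0. With IL-1α and TNF-α the ES-motor neuron libraries at 0 had limits of 17.7, 10 and 26 CPM, which reach the ES-astrocyte values, so that the cell types are not shown to lie apart there. With C1Q and C5 *Tubb6* read 37.7, 32.9, 0 and 27.8 CPM in ES-astrocytes and 0, 0, 1.02 and 0.352 CPM in ES-motor neurons. With IL-1β and IL-6 it read 12, 13.1, 10.1 and 13.2 CPM against 0.696, 0, 9.36 and 0 CPM, and with TGF-β2 24.7, 12.5, 2.16 and 9.56 CPM against 4.13, 0, 0.701 and 0.856 CPM. With IL-1β and IL-6 the ES-motor neuron libraries at 0 had limits of 33.8 and 20.0 CPM, above all 4 ES-astrocyte values, so that no separation is shown there either. With C1Q and C5 and with TGF-β2 the cell types overlapped. On plate 1 the log2 fold change of *Tubb6* was −3.61 (adjusted p = 0.137 by edgeR with Benjamini-Hochberg adjustment) and on plate 2 it was −3.49 (adjusted p = 0.0171).

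*Tuba1c*, an α-tubulin of the general class (ENSMUSG00000043091, chr15:99029891-99038110, plus strand), was also lower in ES-motor neurons. It read 0, 3.46 and 11.1 CPM in ES-astrocytes and 0, 0 and 3.84 CPM in ES-motor neurons. Its coding sequence was 97.1% identical to that of *Tuba1a* and 97.9% to that of *Tuba1b*. Its few counts may thus depend on how reads shared with these more abundant genes were assigned. The ES-motor neuron libraries lay below the ES-astrocyte median in 19 of 20, and 9 ES-astrocyte libraries lay above every ES-motor neuron library. The highest ES-motor neuron value, in control C, was itself under the level of 3 counts in that library. The log2 fold change was −3.35 (SE 0.94, adjusted p = 0.00726 by edgeR with Benjamini-Hochberg adjustment), from 496 summed counts against 59, of which 44 were in ES-motor neurons with IL-1β and IL-6 A, a library of many genes. Without that library it was −4.23 (adjusted p = 0.000967 by edgeR). At 0 were 2 ES-astrocyte and 13 ES-motor neuron libraries, and for only 5 of those 13 did the limit lie under the ES-astrocyte median, so that the depth of the other 8 could not have shown it. Without the 9 libraries under 20% of the median total the log2 fold change was −3.0 and the adjusted p 0.0910, which no longer passed, and it was −2.46 on plate 1 (adjusted p = 0.376) and −3.86 on plate 2 (adjusted p = 0.0651), all by edgeR. Both *Tubb6* and *Tuba1c* passed the filter on low counts through ES-astrocytes and were not kept by it in the 4 main fits of ES-motor neurons alone. The tests of *Tuba1c* are thus given as a description as well.

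*Tuba1b* and *Tubb4b*, the general isotypes with a smaller difference, did not reach the fold threshold. *Tuba1b* read 47.6, 134 and 320.4 CPM in ES-astrocytes and 15.4, 71.8 and 202 CPM in ES-motor neurons. Below the ES-astrocyte median lay 17 of the 20 ES-motor neuron libraries, and the ranges overlapped. Its log2 fold change of −0.70 (SE 0.23) had an adjusted p of 0.0217 in edgeR with Benjamini-Hochberg adjustment. *Tubb4b* read 4.53, 63.0 and 220.2 CPM in ES-astrocytes and 11.3, 39.1 and 91.9 CPM in ES-motor neurons. Here 18 of 20 ES-motor neuron libraries lay below the ES-astrocyte median, with a log2 fold change of −0.70 (SE 0.30) and an adjusted p of 0.0956 by edgeR, which missed the threshold.

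*Tubb5* was the general isotype with a positive log2 fold change, 0.41 (SE 0.19, adjusted p = 0.137 by edgeR with Benjamini-Hochberg adjustment). Without the 9 libraries under 20% of the median total it was 0.72 (adjusted p = 0.0288 by edgeR), still under the fold threshold. It read 1694, 9581 and 13639 CPM in ES-astrocytes and 5253, 11664 and 19789 CPM in ES-motor neurons. The 2 groups overlapped widely, with 14 of 20 ES-motor neuron libraries above the ES-astrocyte median, and the median was higher in ES-motor neurons within 4 of the 5 treatments and lower within 1. In control, *Tubb5* read 1694, 11162, 9957 and 10672 CPM in ES-astrocytes and 10829.9, 10744, 7799 and 15454 CPM in ES-motor neurons. Replicate A of the ES-astrocytes was far under every other control library of either cell type.

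Of the neuronal isotypes, *Tuba1a* had the smallest adjusted p. It read 399, 649.6 and 2499.9 CPM in ES-astrocytes and 814, 1371 and 6831 CPM in ES-motor neurons. All 20 ES-motor neuron libraries lay above the ES-astrocyte median and 13 ES-astrocyte libraries lay below every ES-motor neuron library, but the highest ES-astrocyte libraries reached into the ES-motor neuron range. The log2 fold change was 0.97 (SE 0.27, adjusted p = 0.00696 by edgeR with Benjamini-Hochberg adjustment), just under the fold threshold. In 17 of the 40 fits that left out 1 library each it passed that threshold, with log2 fold changes from 0.75 to 1.17. Part of its counts may be those of *Gm49450* or of the other α-tubulins.

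*Tubb3* read 85.2, 212 and 922 CPM in ES-astrocytes and 153, 357 and 1817 CPM in ES-motor neurons. Above the ES-astrocyte median lay 16 of 20 ES-motor neuron libraries, 2 lay above every ES-astrocyte library, and 5 ES-astrocyte libraries lay below every ES-motor neuron library. This neuronal marker had a log2 fold change of 0.74 (SE 0.30) with an unadjusted p of 0.0173 and an adjusted p of 0.0807 in edgeR with Benjamini-Hochberg adjustment, and did not pass. *Tubb4a*, a β-tubulin of the nervous system, read 0, 48.4 and 130.5 CPM in ES-astrocytes and 12.4, 69.3 and 525 CPM in ES-motor neurons. With 12 of 20 ES-motor neuron libraries above the ES-astrocyte median, its log2 fold change was 1.05 (SE 0.39) and its adjusted p 0.0556 by edgeR, just above the threshold for p. Leaving out single libraries brought *Tubb4a* past both thresholds in 14 of 40 fits and *Tubb3* in 1 of 40.

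*Tubb2a* and *Tubb2b*, neighbouring genes on chromosome 13, share most of their coding sequence. *Tubb2a* read 6.30, 23.3 and 192 CPM in ES-astrocytes and 0, 45.0 and 136 CPM in ES-motor neurons, with 18 of 20 ES-motor neuron libraries above the ES-astrocyte median. *Tubb2b* read 4.01, 21.5 and 111 CPM in ES-astrocytes and 0, 31.6 and 157 CPM in ES-motor neurons, with 14 of 20 above it. Both were at 0 in the same library, ES-motor neurons with C1Q and C5 A, which held 6557 counts. The log2 fold changes were 0.87 for *Tubb2a* (SE 0.34, adjusted p = 0.0639 by edgeR with Benjamini-Hochberg adjustment) and 0.65 for *Tubb2b* (SE 0.38, adjusted p = 0.279 by edgeR). Neither passed over all treatments in the main fit, whereas *Tubb2a* did with the replicate block (1.11, adjusted p = 0.0199 by edgeR). With the libraries of C1Q with C5 alone the log2 fold changes were −0.20 and −0.10, while *Tubb2b* was at −0.15 in control alone.

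The 7 libraries of many genes had a different balance of isotypes. In the 5 of ES-astrocytes *Tuba1a* lay between 1496 and 2499.9 CPM, against 399 to 1099.6 CPM in the other 15, and *Tubb3* between 376 and 922 CPM against 85.2 to 268 CPM. *Tubb5* lay between 1694 and 5148 CPM in these 5 and between 7363 and 13639 CPM in the others. For these 3 genes the 2 sets of ES-astrocyte libraries did not overlap, and how many of all genes were separated likewise was not counted. *Tuba1b* lay between 165 and 320.4 CPM in the 5 and between 47.6 and 143 CPM in the others, again without overlap, and *Tubb2b* between 30.6 and 111 CPM against 4.01 to 34.8 CPM. The 100 most abundant genes took 18.7% to 26.2% of counts in the 5 and 30.3% to 40.4% in the others, and mitochondrial genes 1.12% to 3.83% against 2.62% to 3.95%.

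Among ES-motor neurons the 2 libraries of many genes, IL-1α with TNF-α A and IL-1β with IL-6 A, held 6702 and 6831 CPM of *Tuba1a*, against 814 to 2345 CPM in the other 16 thinned libraries. They held 1817 and 1373 CPM of *Tubb3* against 153 to 535 CPM, and 525 and 338 CPM of *Tubb4a* against 12.4 to 152 CPM. *Tubb2b* stood at 153.4 and 157 CPM against 11.5 to 112 CPM, *Tubb2a* at 136 CPM in both against 15.4 to 93.3 CPM, *Tuba1b* at 189 and 170 CPM against 15.4 to 129 CPM, and *Tubb5* at 5782 and 6979.6 CPM against 7799 to 19789 CPM. In all 7 genes these 2 libraries lay outside the range of those 16, upwards for the 5 neuronal isotypes and the general isotype *Tuba1b* and downwards for *Tubb5*. How many of all genes lay outside it likewise was not counted, so that this is no result particular to the isotypes. *Gm49450*, which overlaps *Tuba1a* and *Tuba1b*, moved with most of these libraries. It stood at 4431 and 2345 CPM in the 2 of ES-motor neurons, against 34.6 to 543 CPM in the other 16. In the 5 of ES-astrocytes it stood at 538 to 951 CPM in 4 and at 9.07 CPM, the lowest of all, in C1Q with C5 D, against 21.1 to 242 CPM in the other 15. How far its reads bear on the levels of *Tuba1a* and *Tuba1b* there is not known.

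Per length, the neuronal isotypes made up 7.57%, 14.2% and 65.8% of the tubulin mRNA in ES-astrocytes (lowest, median and highest library) and 12.8%, 19.8% and 73.2% in ES-motor neurons. Above the ES-astrocyte median lay 19 of 20 ES-motor neuron libraries, but the ranges overlapped nearly in full, and the median share was higher in ES-motor neurons within 3 of the 5 treatments. In the 5 ES-astrocyte libraries of many genes the share was 44.0% to 65.8%, against 7.57% to 25.2% in the others. In the 2 such ES-motor neuron libraries it was 73.2% and 68.4%, against 12.8% to 34.0% in the other 16. The share also varied below the cut of 9000 genes. Nearest to the cut were ES-astrocytes with IL-1β and IL-6 B, with 8853 genes and a share of 25.2%, and ES-motor neuron control B, with 8373 genes and 33.7%. The α-isotypes made up 6.51%, 11.9% and 43.7% of the tubulin mRNA in ES-astrocytes and 9.43%, 16.1% and 55.0% in ES-motor neurons, and the share of *Tubb3* among β-tubulins had medians of 3.42% and 4.64%.

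**Figure D2:**
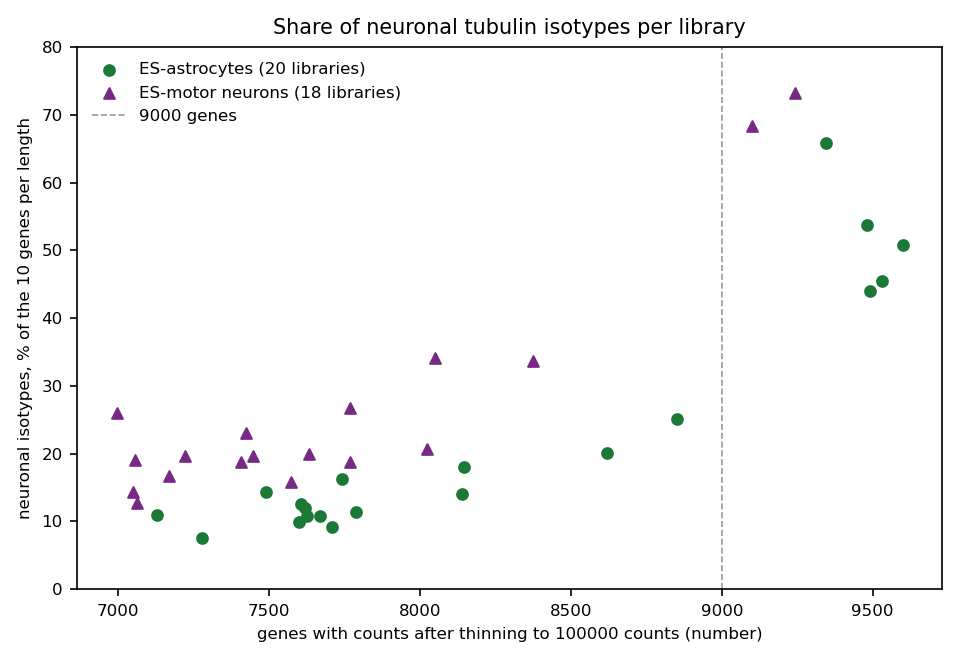
Share of the 5 neuronal isotypes in the tubulin mRNA per length (vertical axis, %) against the number of genes with counts after thinning to 100000 counts (horizontal axis), each point a library. To the right of 9000 genes stand 5 ES-astrocyte and 2 ES-motor neuron libraries, with shares of 44.0% to 73.2%.

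Without these 7 libraries, an alternative chosen after seeing the data, the quasi-likelihood test of edgeR with Benjamini-Hochberg adjustment found 5 of the 10 isotypes past both thresholds, against 1948 of 13866 genes tested. The libraries left out held the highest *Tuba1a* and *Tubb3* of each cell type, so that leaving them out acts on the values tested. The calls and p-values of this fit are therefore given as a description. Higher in ES-motor neurons were *Tuba1a* (log2 fold change 1.20, SE 0.15, adjusted p = 3.91e-08), *Tubb2a* (1.37, SE 0.30, adjusted p = 0.000798) and *Tubb2b* (1.06, SE 0.38, adjusted p = 0.0437). Lower were *Tuba1c* (−3.74, SE 1.15, adjusted p = 0.0178) and *Tubb6* (−2.68, SE 0.92, adjusted p = 0.0367). *Tubb3* stayed under the fold threshold at 0.90 (SE 0.19) with an edgeR adjusted p of 0.000449, and so did *Tuba1b* at −0.68 with 0.0260. *Tubb4a* (1.01, adjusted p = 0.0787), *Tubb4b* (−0.36, adjusted p = 0.519) and *Tubb5* (0.30, adjusted p = 0.159) did not reach the edgeR threshold for p. The 3 neuronal isotypes that passed here are also the ones whose counts near-identical copies or an overlapping gene make uncertain.

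**Figure D3:**
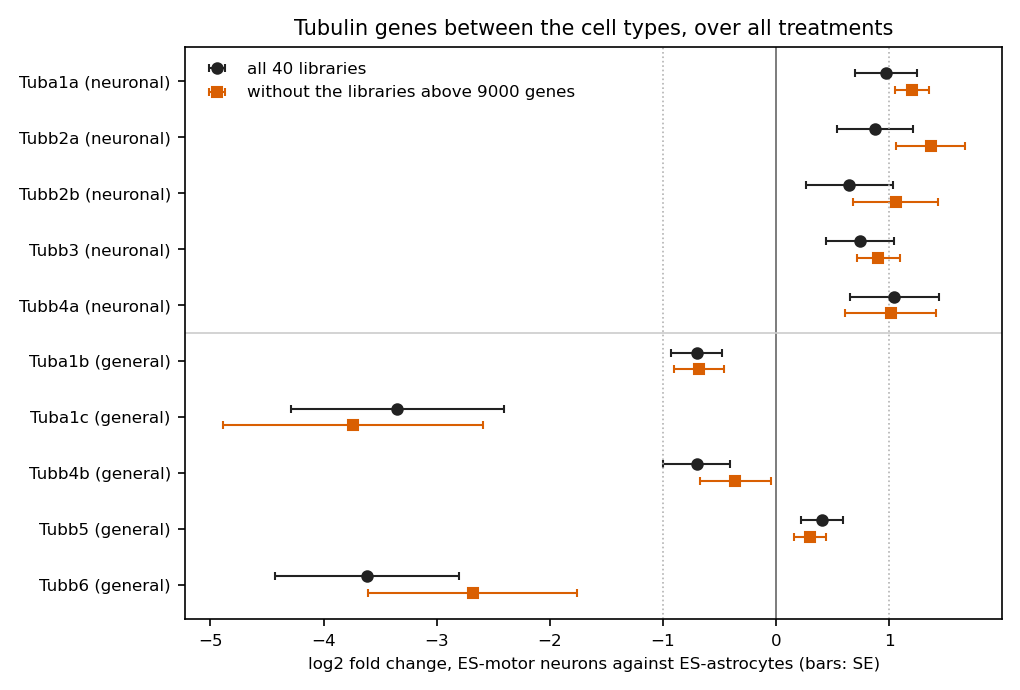
Log2 fold change of ES-motor neurons against ES-astrocytes over all treatments (horizontal axis, bars are SE) for the 10 tubulin genes, with all 40 libraries (circles) and without the 7 libraries above 9000 genes (squares), dotted lines at a size of 1. The neuronal isotypes lie right of 0 and the general isotypes other than *Tubb5* left of it in both fits.

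Markers of the cell types were read beside the isotypes. The counts of markers called, here and below, stand beside 511 genes called higher and 1461 called lower among all 13227 tested (14.9%). In ES-motor neurons 8 of the 9 motor neuron markers were higher, with a summed level of 658, 1019.9 and 4767 CPM (lowest, median, highest) led by *Mnx1* (median 661 CPM), against 15.6, 43.0 and 115 CPM in ES-astrocytes, led by *Isl1* (16.6 CPM). Of these markers *Mnx1* encodes Hb9, whose promoter drove the eGFP used for the sort, so that its difference was set by the sort. *Isl2*, *Chat*, *Slc18a3* and *Slc5a7* had a median of 0 in ES-astrocytes and passed the filter on low counts through ES-motor neurons, so that their tests are a description. *Ret* and *Prph* were at 0 in 10 ES-astrocyte libraries each. Of 11 general neuronal markers 5 were higher, at 5523, 16793 and 24515 CPM in ES-motor neurons and 1929, 4252 and 6468 CPM in ES-astrocytes, with *Gap43* the most abundant in both (medians 6603 and 1073 CPM). Neuronal markers were thus well above 0 in the eGFP-negative libraries, as *Tubb3* was. The library with the most *Tubb3* among ES-astrocytes, control A at 922 CPM, had the lowest summed level of the neuronal markers, 1929 CPM. What part neuronal RNA has in the tubulin of the ES-astrocyte libraries was not tested. In the 2 ES-motor neuron libraries of many genes the motor neuron markers summed to 4767 and 3476 CPM, against 658 to 2285 CPM in the other 16. The general neuronal markers were not raised there, at 10094 and 13856 CPM against 10900 to 24515 CPM. In the ES-astrocyte libraries of many genes they summed to 1929 to 4555 CPM, against 3419 to 6468 CPM in the other ES-astrocyte libraries.

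Of the 13 astrocyte markers 8 were tested, of which 6 were lower and 1 higher in ES-motor neurons, and their summed level was 695, 1898 and 3154 CPM in ES-astrocytes against 94.4, 389.5 and 765 CPM. *Fabp7* led in ES-astrocytes (median 1329.5 CPM) and *Sox9* in ES-motor neurons (273 CPM), whereas the defining markers *Gfap*, *Aqp4* and *Aldh1l1* were at 0 in every ES-astrocyte library. The astrocyte markers summed to 695 to 1370 CPM in the 5 ES-astrocyte libraries of many genes and to 1331 to 3154 CPM in the other 15, and to 94.4 and 116 CPM in the 2 such ES-motor neuron libraries against 165 to 765 CPM in the other 16. All 7 markers of dividing cells were lower in ES-motor neurons, with summed levels of 667, 1093 and 1543 CPM in ES-astrocytes (*Top2a* median 419 CPM) and 0, 7.48 and 19.3 CPM in ES-motor neurons. All 6 tested of 8 interneuron markers were lower by edgeR and 4 by DESeq2, at 59.7, 176 and 323 CPM against 0, 0 and 13.6 CPM, led in ES-astrocytes by *Gata3* (127 CPM), with *Evx1* at 0 throughout. All 3 tested of 5 fibroblast markers were lower as well, at 36.8, 202 and 1099.7 CPM against 0, 0 and 5.90 CPM, led by *Dcn* (138 CPM). The tested markers of interneurons and fibroblasts had a median of 0 in ES-motor neurons. So did those of dividing cells except *Top2a*, and the astrocyte markers *Slc1a3*, *Gja1*, *Cd44* and *Fgfr3*. Such genes passed the filter on low counts through ES-astrocytes, so that their lower level is given as a description. Markers of dividing cells, interneurons and fibroblasts were thus lower in ES-motor neurons as *Tubb6* and *Tuba1c* were, and their part in that difference was not tested.

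Markers of other lineages were low in both cell types. Oligodendrocyte markers, 3 of 6 tested with 0 past the thresholds in edgeR, 0 at an unadjusted p under 0.05 and 0 in DESeq2, summed to a median of 5.85 CPM in ES-astrocytes and one of 10.3 CPM in ES-motor neurons. Microglial markers, 1 of 5 tested and not past the thresholds, had medians of 0.414 and 3.38 CPM, with *Aif1* and *P2ry12* at 0 in all 40 libraries. Of the pluripotency markers 0 of 3 could be tested, with medians of 0.162 and 0 CPM and *Pou5f1* and *Zfp42* at 0 in all libraries.

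The genes around the isotypes were examined as lists in the same comparison, where edgeR called 14.9% of the 13227 genes tested and 3762 had an unadjusted p under 0.05. Of 10 other tubulins 4 passed the filter on low counts and 0 passed the thresholds in edgeR, 1 had an unadjusted p under 0.05 and DESeq2 called 0, with a median log2 fold change of −0.54 against −0.21 over all genes tested. *Tubg1*, the γ-tubulin from which microtubules are nucleated, read 0, 29.9 and 179 CPM in ES-astrocytes and 0, 15.6 and 153 CPM in ES-motor neurons (log2 fold change −1.29, adjusted p = 0.164 by edgeR with Benjamini-Hochberg adjustment). *Tube1*, ε-tubulin of the centriole, read 0, 20.8 and 71.0 CPM against 0, 1.08 and 18 CPM (−1.54, edgeR adjusted p = 0.245), and δ-tubulin *Tubd1* had a log2 fold change of 0.61 (edgeR adjusted p = 0.748). All 3 overlapped between the cell types. Of the 8 genes of the γ-tubulin ring, which caps microtubules at their origin, 0 passed in edgeR, 1 had an unadjusted p under 0.05 and DESeq2 called 0, with a median of −0.04, again against −0.21 over all genes tested. Its 3 smallest p belonged to *Mzt1* (0.48, edgeR adjusted p = 0.0620), *Nedd1* (−0.79, 0.466) and *Tubgcp5* (−0.43, 0.560).

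Among 21 genes that fold tubulin (the CCT chaperonin, prefoldin and the tubulin cofactors), 1 was higher and 0 were lower in ES-motor neurons by edgeR, 5 had an unadjusted p under 0.05 and DESeq2 called 0, with a median log2 fold change of 0.04. Over all 13227 genes tested edgeR called 14.9%, 3762 had an unadjusted p under 0.05 and the median was −0.21. The gene called in the list was *Pfdn4*, a prefoldin subunit, which read 120, 174 and 300.3 CPM in ES-astrocytes and 135, 336 and 864 CPM in ES-motor neurons. The range in ES-motor neurons took in most of that in ES-astrocytes, and the log2 fold change was 1.01 (SE 0.17, adjusted p = 1.24e-05 by edgeR with Benjamini-Hochberg adjustment). *Vbp1*, another prefoldin subunit, had a log2 fold change of 0.54 (edgeR adjusted p = 0.0113), under the fold threshold, and the cofactor *Tbce* one of 0.74 (edgeR adjusted p = 0.0869).

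Of 19 enzymes that modify tubulin 15 were tested, of which 1 was higher and 1 lower in ES-motor neurons by edgeR, and 2 higher and 1 lower by DESeq2, with a median of 0.14. The edgeR share of 13.3% is near the 14.9% of all genes and is no result about the list. *Vash2*, which removes the last tyrosine of α-tubulin, read 0, 26.8 and 92.5 CPM in ES-astrocytes and 17.3, 84.4 and 127 CPM in ES-motor neurons (log2 fold change 1.32, SE 0.39, adjusted p = 0.0110 by edgeR with Benjamini-Hochberg adjustment). *Agbl5*, a deglutamylase, read 10, 22.1 and 49.6 CPM against 0, 11.2 and 23.7 CPM, with a log2 fold change of −1.05 (SE 0.33, edgeR adjusted p = 0.0181). The ranges of both genes overlapped between the cell types. *Agtpbp1*, also a deglutamylase, had a log2 fold change of 1.12 with an edgeR adjusted p of 0.0532. In the list of tubulin mRNA autoregulation 0 of 2 genes passed in edgeR, 1 had an unadjusted p under 0.05 and DESeq2 called 0: *Scaper* had a log2 fold change of 1.28 (edgeR adjusted p = 0.0684) and *Ttc5* one of −0.25 (edgeR adjusted p = 0.777).

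The stimuli were compared with control within each cell type, the question being whether an inflammatory stimulus of the ES-astrocytes altered the isotypes in them or in the ES-motor neurons above. In ES-astrocytes edgeR called 0 of the 10 isotypes for each stimulus, where 0% of the genes tested were called (10444 for IL-1α with TNF-α, 10865 for C1Q with C5, 10240 for IL-1β with IL-6 and 10794 for TGF-β2). An unadjusted p under 0.05 was reached by 0 isotypes in each of the 4 comparisons (and by 93, 106, 119 and 136 genes), or by at most 1, 2, 0 and 1 isotypes when 1 library was left out, and DESeq2 called 0. With IL-1α and TNF-α the log2 fold changes ran from −1.11 (*Tubb6*) to 1.32 (*Tubb4a*) around a median of −0.12, against −0.08 over all genes tested. With C1Q and C5 they ran from −0.21 (*Tubb6*) to 1.26 (*Tubb2a*) around 0.26, against −0.07. With IL-1β and IL-6 the range was −1.26 (*Tubb6*) to 0.66 (*Tubb4a*) around −0.55, and with TGF-β2 it was −1.17 (*Tubb6*) to 0.97 (*Tubb4a*) around −0.04, against −0.07 and −0.06 over all genes. All 4 comparisons share the same control libraries, and these values depend on control A, with 96.5 CPM of *Tubb6*. Without it the log2 fold changes of *Tubb6* were 1.05, 1.93, 0.90 and 0.93 for the 4 stimuli in this order (unadjusted p from 0.360 to 0.671 by edgeR), so that their sign turned. Without all libraries of many genes the medians of the isotypes were 0.57, 0.24, 0.55 and 0.47, and 5, 2, 6 and 3 isotypes changed sign.

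*Tubb3* read 922, 216, 85.2 and 142 CPM in control ES-astrocytes and 195, 411, 211 and 214 CPM with IL-1α and TNF-α. It read 225, 376, 96.4 and 736 CPM with C1Q and C5, and 146, 268, 109.6 and 191 CPM with IL-1β and IL-6. The values with TGF-β2 were 376, 182, 226 and 159.8 CPM. Every stimulated ES-astrocyte library lay inside the range of the 4 controls, whose ends were control A and control C. The log2 fold change of *Tubb3* for IL-1β with IL-6 was −0.92 with all 8 libraries and 0.31 without control A, a library of many genes, and neither passed.

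*Tuba1a* in ES-astrocytes read 1496, 591, 444 and 537 CPM in control, 541, 2499.9, 668 and 675 CPM with IL-1α and TNF-α, and 609, 1957, 539 and 1792 CPM with C1Q and C5. It read 678, 1099.6, 399 and 617 CPM with IL-1β and IL-6 and 2061, 896, 625 and 631 CPM with TGF-β2. The libraries above all controls were 1 with IL-1α and TNF-α, 2 with C1Q and C5 and 1 with TGF-β2, all 4 of them libraries of many genes, and 1 with IL-1β and IL-6 lay below all controls. *Tubb5* read 1694, 11162, 9957 and 10672 CPM in control, 11776, 5116, 10496 and 8344 CPM with IL-1α and TNF-α, 13438, 5125, 10985 and 3734 CPM with C1Q and C5, 13639, 7448, 12548 and 9205 CPM with IL-1β and IL-6, and 5148, 8092, 7363 and 10869.5 CPM with TGF-β2. The same libraries that were high in *Tuba1a* were low in *Tubb5*, and the rest of the stimulated libraries lay between 7363 and 13639 CPM. Above all controls in *Tubb5* lay 1, 1, 2 and 0 libraries with the 4 stimuli in this order, and below them 0.

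*Tubb4a* in ES-astrocytes read 47.6, 21.3, 19.3 and 24.6 CPM in control and 75.1, 130.5, 69.7 and 0 CPM with IL-1α and TNF-α. It read 32.3, 64.5, 27.8 and 102 CPM with C1Q and C5, 65.3, 37.4, 58.3 and 16.6 CPM with IL-1β and IL-6, and 97.5, 59.6, 5.05 and 49.2 CPM with TGF-β2. Above all controls lay 3 libraries with IL-1α and TNF-α, 2 with C1Q and C5, 2 with IL-1β and IL-6 and 3 with TGF-β2, while with all stimuli but C1Q and C5 1 library lay below all controls. The smallest unadjusted p of any isotype in ES-astrocytes was 0.142 (*Tubb4b*), 0.130 (*Tubb4a*), 0.211 (*Tubb3*) and 0.243 (*Tubb4a*) for the 4 stimuli in the same order.

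In ES-motor neurons 8 of the 10 isotypes passed the filter on low counts, *Tubb6* and *Tuba1c* having too few. For IL-1α with TNF-α, C1Q with C5 and IL-1β with IL-6 edgeR called 0 of the 8 and 0% of the 4479, 7348 and 8327 genes tested, and for TGF-β2 it called 0 of the 8 and 0.0126% of 7947 genes. DESeq2 called 0 isotypes in all 4 comparisons. At an unadjusted p under 0.05 stood 1 isotype for IL-1α with TNF-α (and 143 genes) and 0 for each of the other 3 (322, 98 and 221 genes). For IL-1α with TNF-α that number of isotypes was not stable. Leaving out 1 library gave 0 (without IL-1α with TNF-α A, among others) to 4 (without its D), DESeq2, RLE and total counts each gave 4, no filter gave 2 and the replicate block 0. For IL-1β with IL-6 it reached 2 without control B and with no filter. With IL-1α and TNF-α the log2 fold changes ran from −0.08 (*Tubb5*) to 1.83 (*Tubb4a*) around a median of 1.10, against 0.03 over all genes tested. The ranges were 0.06 (*Tubb4b*) to 0.70 (*Tubb2a*) with C1Q and C5, 0.02 (*Tubb5*) to 1.06 (*Tubb4a*) with IL-1β and IL-6 and −0.32 (*Tubb4b*) to 0.58 (*Tubb2a*) with TGF-β2. Their medians were 0.27, 0.69 and 0.16, against −0.06, −0.01 and −0.00 over all genes. The values for IL-1α with TNF-α and for IL-1β with IL-6 rested on replicate A of each, a library of many genes. Without it the isotypes ran from −0.18 (*Tuba1b*) to 0.48 (*Tubb2a*) around 0.02 for the former, with *Tubb4a* at 0.33, and from −0.70 (*Tubb3*) to 0.33 (*Tubb2a*) around −0.21 for the latter.

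The isotype with an unadjusted p under 0.05 was *Tubb4a*. It read 24.4, 114.5, 69.1 and 38.6 CPM in control ES-motor neurons and 525, 53.9, 127 and 26 CPM with IL-1α and TNF-α. Above all controls lay 2 of the 4 stimulated libraries and the other 2 lay among them, and replicate A, with 525 CPM, was a library of many genes. The log2 fold change was 1.83 (SE 0.73) with an unadjusted p of 0.0210 and an adjusted p of 0.990 in edgeR with Benjamini-Hochberg adjustment. With C1Q and C5 *Tubb4a* read 135, 41.4, 108 and 109.9 CPM, with IL-1β and IL-6 338, 45.1, 92.4 and 13.4 CPM and with TGF-β2 12.4, 152, 69.4 and 46.2 CPM. In each of these 3 groups 1 library lay above all controls, and with IL-1β and IL-6 and with TGF-β2 1 library each lay below them. The one above with C1Q and C5 was replicate A, whose 135 CPM lay under its limit of 3 counts (202 CPM).

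*Tubb3* in ES-motor neurons read 209, 523, 154 and 496 CPM in control, 1817, 224, 432 and 285 CPM with IL-1α and TNF-α, and 471, 418, 363 and 535 CPM with C1Q and C5. It read 1373, 214, 221 and 187 CPM with IL-1β and IL-6 and 153, 352, 346 and 446 CPM with TGF-β2. Above all controls lay 1 library with each of the first 3 stimuli, the 2 highest being the libraries of many genes, and 1 library with TGF-β2 lay just under the lowest control. *Tuba1a* read 1107, 2345, 814 and 1355 CPM in control, 6702, 1907, 1014 and 1263 CPM with IL-1α and TNF-α, and 1886, 1815, 1480.0 and 1387 CPM with C1Q and C5. With IL-1β and IL-6 it read 6831, 1206, 1325 and 1149 CPM and with TGF-β2 831, 1563, 1122 and 1864 CPM. Apart from the 2 libraries of many genes, every stimulated library lay inside the range of the controls.

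*Tubb5* in ES-motor neurons read 5782, 7888, 15524 and 8504 CPM with IL-1α and TNF-α and 5253, 14316, 15385 and 15308 CPM with C1Q and C5, where the controls ran from 7799 to 15454 CPM. It read 6979.6, 11692, 15408 and 10465 CPM with IL-1β and IL-6 and 11635, 14488, 19789 and 12465 CPM with TGF-β2. Below all controls lay replicate A of the first 3 stimuli, 2 of them libraries of many genes and the other the library of 6557 counts, and above all controls lay replicate C with IL-1α and TNF-α and with TGF-β2. The smallest unadjusted p in ES-motor neurons was 0.187 (*Tuba1b*) for C1Q with C5, 0.0904 (*Tubb2a*) for IL-1β with IL-6 and 0.258 (*Tubb5*) for TGF-β2.

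*Tuba1c* was left out of the main fits within ES-motor neurons by the filter. DESeq2 and edgeR with no filter tested it and called it for none of the 4 stimuli, its smallest unadjusted p being 0.0436 (C1Q with C5, no filter, adjusted p = 0.387 by edgeR). It read 1.81, 0.459, 3.84 and 0.477 CPM in control, 0 CPM in all 4 libraries with IL-1α and TNF-α and in all 4 with C1Q and C5, 2.79, 0, 0.199 and 0 CPM with IL-1β and IL-6 and 0, 0.0856, 0 and 0 CPM with TGF-β2. The control values rested on 13 counts in all, and those of A, C and D lay under the level of 3 counts in their libraries. For 3 stimuli all 4 libraries and for IL-1β with IL-6 3 of them thus read below all controls, but the limits of those at 0 ran from 1.06 to 202 CPM, so that all were too shallow to show the level of the 2 lower controls. In ES-astrocytes *Tuba1c* read 10.3, 0.722, 0 and 2.91 CPM in control and 3.67, 8.57, 8.26 and 5.51 CPM with IL-1α and TNF-α. It read 0.673, 5.87, 2.72 and 11.1 CPM with C1Q and C5, 0.227, 2.62, 0.467 and 4.41 CPM with IL-1β and IL-6, and 7.34, 4.94, 3.24 and 0 CPM with TGF-β2. Only 1 stimulated ES-astrocyte library, C1Q with C5 D, lay outside the range of the controls.

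The isotypes *Tuba1b*, *Tubb2a*, *Tubb2b* and *Tubb4b* are given by the range of the controls and the number of stimulated libraries outside it. *Tuba1b* lay between 119 and 167 CPM in control ES-astrocytes and between 86.9 and 320.4 CPM with C1Q and C5, where 2 libraries lay above and 2 below all controls. With IL-1α and TNF-α, with IL-1β and IL-6 and with TGF-β2, 2 libraries each lay below all controls, and 1 with TGF-β2 lay above them. *Tubb4b* lay between 24.4 and 220.2 CPM in control ES-astrocytes and between 4.53 and 99.0 CPM with IL-1β and IL-6, with 2 libraries below all controls, and 1 library with TGF-β2 (12.8 CPM) was also below them. *Tubb2a* lay between 10.5 and 71.8 CPM in control ES-astrocytes and reached 192 CPM in 1 library with C1Q and C5, replicate D, while 1 library with C1Q and C5 (9.51 CPM) and 1 with IL-1β and IL-6 (6.30 CPM) lay below the controls. *Tubb2b* lay between 4.01 and 111 CPM in control ES-astrocytes, a range that held all 16 stimulated libraries.

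In ES-motor neurons *Tubb2a* lay between 15.4 and 48.1 CPM in control. Above that range were 2 libraries with IL-1α and TNF-α (136 and 56.0 CPM), 2 with C1Q and C5 (63.6 and 75 CPM), 1 with IL-1β and IL-6 (136 CPM) and 1 with TGF-β2 (93.3 CPM), and replicate A with C1Q and C5 read 0 with a limit of 202 CPM. *Tubb2b* lay between 11.5 and 51.0 CPM in control, with 2 libraries above with IL-1α and TNF-α (153.4 and 51.9 CPM), 1 with IL-1β and IL-6 (157 CPM) and 1 with TGF-β2 (112 CPM). Below it were 1 library with IL-1β and IL-6 (11.3 CPM) and, at 0 with the same limit of 202 CPM, replicate A with C1Q and C5. *Tuba1b* lay between 15.4 and 98.2 CPM in control, with 1 library above with IL-1α and TNF-α (189 CPM), 2 with C1Q and C5 (202 and 129 CPM), 1 with IL-1β and IL-6 (170 CPM) and 1 with TGF-β2 (116 CPM), and 0 below. *Tubb4b* lay between 31.6 and 50.7 CPM in control, with 1 library above with each stimulus (51.9, 67.4, 91.9 and 58.2 CPM). Below that range were 1 library with IL-1α and TNF-α (21.5 CPM), 0 with C1Q and C5, 1 with IL-1β and IL-6 (11.3 CPM) and 2 with TGF-β2 (16.5 and 21 CPM).

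Whether a stimulus acted differently in the cell types was tested as the interaction of stimulus and cell type, with all 10 isotypes in each fit. edgeR called 0 of the 10 for IL-1α with TNF-α, IL-1β with IL-6 and TGF-β2, where 0% of the 11161, 12104 and 11967 genes tested were called, and 0 of the 10 for C1Q with C5, where 0.00881% of 11352 genes were. At an unadjusted p under 0.05 stood 0 isotypes in each of the 4, and DESeq2 called 0. *Tubb3* had an interaction of 1.33 on the log2 scale for IL-1α with TNF-α (SE 0.96, unadjusted p = 0.181 by edgeR) and of 1.37 for IL-1β with IL-6 (SE 0.96, unadjusted p = 0.169 by edgeR), positive values standing for a higher response in ES-motor neurons. Without the libraries of many genes these were −0.65 and −1.04, so that their sign rested on those libraries. The median interaction of the neuronal isotypes was 0.99 for IL-1α with TNF-α, −0.57 for C1Q with C5, 1.33 for IL-1β with IL-6 and 0.41 for TGF-β2, against −0.05, −0.11, 0.04 and 0.02 over all genes tested. Without the libraries of many genes these medians were −0.63, 0.06, −1.04 and −0.48, each with the other sign. For *Tuba1c*, which had the smallest p with C1Q and C5 (0.0657) and with TGF-β2 (0.114, both by edgeR), no fold is given because nearly all of those ES-motor neuron libraries were at 0.

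The genes whose levels most resembled those of *Tubb3* were listed by the Pearson correlation of log2(CPM + 1), as a description over libraries that differ in depth and include those of many genes. Over the 20 ES-astrocyte libraries and 13214 genes these were *Marcksl1* (0.914), *Gm23134* (0.913), *Tubb2b* (0.896), *Pgls* (0.864) and *Crlf2* (0.864), and the correlation of *Tubb3* with *Tubb5* was −0.873. Over the 11 ES-motor neuron libraries of at least 20% of the median total and 13014 genes they were *Rpl28* (0.930), *Fabp5* (0.911), *Cnih2* (0.902), *Serinc4* (0.900) and *Npdc1* (0.899). The neuronal isotype *Tubb2b* was thus the third among all genes in ES-astrocytes, and no gene stood in the first 5 of both cell types. For *Tubb6* the first 5 in ES-astrocytes were *Siah1b* (0.788), *Pdhx* (0.782), *Prmt5* (0.778), *Taf10* (0.768) and *Gm27029* (0.765). In ES-motor neurons, where most values of *Tubb6* were at or near 0, they were *Gm48582* (0.941), *2610002M06Rik* (0.910), *Atf7ip* (0.906), *Oprl1* (0.897) and *Pcgf3* (0.861).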

How the data were processed

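The deposited counts, whole numbers per Ensembl gene and library that the authors made with STAR from paired-end reads of amplified polyadenylated RNA, were used as they were. Not given in the sources used here: genome build, annotation release, counting tool and strand. GENCODE M21 named 55141 of 55487 genes, and the 346 without a name held 0.133% of counts and stayed in the fits. Members and lists were chosen with earlier results of these data known. All 10 isotypes are named, and of each list the 3 tested genes of smallest p between the cell types. For *Tubb3* and *Tubb6* the 5 genes of highest correlation are named.

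Fits used edgeR 4.0.16 in R 4.3.3 (filterByExpr, TMM, robust quasi-likelihood fit and test) with cell type and treatment over 40 libraries, or the 8 or 16 libraries of a comparison. Calls needed an adjusted p (Benjamini-Hochberg, over all genes tested) of 0.05 or less and a log2 fold change beyond 1 in size. DESeq2 1.42.0, other scalings, no filter, a replicate block and left-out libraries were alternatives. The fits were also run on simulated data, from which no result is reported here. Tables and figures used Python 3.11.15, pandas 2.3.3, numpy 2.4.6 and matplotlib 3.10.9. CPM per kb used the summed exon length of each gene, and values of CPM came from these counts and not from the authors. The coding ends of the α-tubulins are not reported here.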

Additional observations from a re-analysis of the deposited data

Results flagged for a closer look

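In each group of 4 libraries the highest or lowest value of an isotype was marked when its distance to the nearest other value took up more of the range of the group than Dixon's 95% limit allows. That was so in 21 of 100 groups, from 9 libraries. Chance alone marks about 1 in 20 groups when values are normal and independent, but CPM are skewed, a group with 3 libraries at 0 and 1 above is always marked, and ES-motor neurons with IL-1β and IL-6 A (6 marks), ES-astrocyte control A (5) and ES-astrocytes with IL-1α and TNF-α B (3) gave most of the marks, so that the 21 cannot be held against that rate. The marked values are CPM, set beside the range of the other 3 libraries.

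*Tuba1a* was marked in ES-astrocytes at 1496 in control A (others 444 to 591) and at 2500 (2499.9) in IL-1α with TNF-α B (541 to 675). In ES-motor neurons it was marked at 6702 in IL-1α with TNF-α A (1014 to 1907) and at 6831 in IL-1β with IL-6 A (1149 to 1325). *Tuba1b* was marked at 170 in ES-motor neurons with IL-1β and IL-6 A (33.8 to 57.1). *Tuba1c* was marked at 2.79 in the same library (0 to 0.199), and at 0.0856, a value of 1 count, in ES-motor neurons with TGF-β2 B, the other 3 being at 0.

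*Tubb2a* was marked in ES-astrocytes at 71.8 in control A (10.5 to 15.6) and at 192 in C1Q with C5 D (9.51 to 26.2), and in ES-motor neurons at 136 in IL-1β with IL-6 A (40.1 to 45.1). *Tubb2b* was marked at 111 in ES-astrocyte control A (4.01 to 18.9), at 53 (53.0) in ES-astrocytes with IL-1α and TNF-α B (16 to 20.7) and at 157 in ES-motor neurons with IL-1β and IL-6 A (11.3 to 26.7). *Tubb3* was marked at 922 in ES-astrocyte control A (85.2 to 216), at 411 in ES-astrocytes with IL-1α and TNF-α B (195 to 214), at 1817 in ES-motor neurons with IL-1α and TNF-α A (224 to 432) and at 1373 in those with IL-1β and IL-6 A (187 to 221).

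*Tubb5* was marked for low values, 1694 in ES-astrocyte control A (9957 to 11162) and 5253 in ES-motor neurons with C1Q and C5 A (14316 to 15385), the library of 6557 counts. *Tubb6* was marked at 2.15 in ES-motor neurons with IL-1α and TNF-α B, the others being at 0, and at 9.36 in ES-motor neurons with IL-1β and IL-6 C (0 to 0.696).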

How the results depend on the processing

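Between the cell types, *Tubb6* and *Tuba1c* passed in all 40 fits that left out 1 library and under DESeq2, RLE, total counts, no filter and the replicate block. Both had entered the main fit through ES-astrocytes, the group where they were high, so that these refits describe the difference and are no further support. Without the 9 libraries under 20% of the median total the count was again 2, with *Tuba1a* (1.15, adjusted p = 0.00878 by edgeR) in place of *Tuba1c* (−3.0, adjusted p = 0.0910, against 0.00661 to 0.0282 in the 5 alternatives with all libraries). The replicate block, with treatment and letter together, added *Tubb2a* (log2 fold change 1.11, adjusted p = 0.0199 by edgeR) and so gave 3 isotypes and 1775 genes. The labels do not say whether a letter marks 1 co-culture, and the main fit did not use the letters as pairs. Of 20 pairs of libraries that share treatment and letter, 1 correlated above 0.1 (median 0.010). Such a correlation cannot show whether the 2 libraries of a pair came from 1 co-culture. The count of isotypes past the thresholds was 2 with all libraries and 5 without the libraries of many genes. It was 0 in each of the 5 treatments alone, 0 on plate 1 and 1 on plate 2. By adjusted p alone it was 4, a rule that 18.7% of all genes met. Of all genes tested, edgeR called 14.9% with all libraries and 14.05% without the libraries of many genes. The shares were 2.24%, 2.82%, 3.15%, 2.12% and 3.62% in control, IL-1α with TNF-α, C1Q with C5, IL-1β with IL-6 and TGF-β2 alone. They were 6.65% on plate 1 and 10.01% on plate 2. The fits of single treatments and plates hold fewer libraries, and the filter on low counts left *Tuba1c* out of all 5 single treatments and *Tubb6* out of those of IL-1α with TNF-α and of C1Q with C5, so that the 0 there is no test of them. *Tubb6* was tested in the other 3 and did not pass (−3.70, −1.79 and −3.81 in control, IL-1β with IL-6 and TGF-β2, adjusted p = 0.636, 0.879 and 0.381 by edgeR). Leaving out the libraries of many genes and splitting by plate were alternatives chosen after seeing the data, and the former took out the libraries of highest *Tuba1a* and *Tubb3*.

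Leaving out 1 library gave 2 to 6 isotypes. It was 6 without ES-astrocyte control A, 5 without ES-astrocyte C1Q with C5 D, and 4 without ES-astrocyte TGF-β2 A or IL-1α with TNF-α B, or ES-motor neuron control A, TGF-β2 A, IL-1β with IL-6 C or D, or IL-1α with TNF-α D, the other 31 giving counts within 1.5 times. Over the 40 fits the isotypes added were *Tuba1a* (17 fits), *Tubb4a* (14), *Tubb2a* (2) and *Tubb3* (1). Log2 fold changes ran over 0.75 to 1.17 for *Tuba1a*, −0.85 to −0.55 for *Tuba1b*, −4.23 to −3.09 for *Tuba1c*, 0.72 to 1.28 for *Tubb2a*, 0.38 to 0.99 for *Tubb2b*, 0.49 to 1.01 for *Tubb3*, 0.82 to 1.23 for *Tubb4a*, −0.83 to −0.52 for *Tubb4b*, 0.37 to 0.48 for *Tubb5* (0.72 without the 9 libraries under 20% of the median total, adjusted p = 0.0288, and 0.43 with total counts, adjusted p = 0.0259, both by edgeR) and −4.21 to −3.13 for *Tubb6*.

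Signs turned for *Tubb2a* (−0.20) and *Tubb2b* (−0.10) in C1Q with C5 alone and for *Tubb2b* (−0.15) in control alone. Without the libraries of many genes many signs turned within the stimulus comparisons. In ES-astrocytes these were 5, 2, 6 and 3 of the isotypes (IL-1α with TNF-α, C1Q with C5, IL-1β with IL-6, TGF-β2), *Tubb6* with all 4. In ES-motor neurons they were 5 of 8 for IL-1α with TNF-α and 6 of 8 for IL-1β with IL-6 (*Tuba1a* from 0.89 to −0.14, *Tubb3* from 0.54 to −0.70 and *Tubb4a* from 1.06 to −0.14 among them), and in the interactions 6, 4, 9 and 3. Among those of *Tubb3* were ES-astrocytes with IL-1β and IL-6 (0.31, the same fit as without control A, and −1.18 at the lowest, without control D) and the interactions of IL-1α with TNF-α (−0.65) and IL-1β with IL-6 (−1.04). The cause was not tested.

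Over all genes, 1972 calls between the cell types became 228, 233, 258, 202 and 361 in the 5 treatments alone (control, IL-1α with TNF-α, C1Q with C5, IL-1β with IL-6, TGF-β2), 742 on plate 1 and 1249 on plate 2, all with fewer libraries. For the stimuli edgeR called 0 genes in ES-astrocytes where DESeq2 called 21, 37, 56 and 58 (stimuli in the same order). In ES-motor neurons edgeR called 0, 0, 0 and 1 and DESeq2 1, 0, 1 and 19, and in the interactions 0, 1, 0 and 0 against 0, 7, 25 and 18. With no filter on low counts edgeR called 2 for IL-1α with TNF-α in ES-astrocytes, 1 for it and 5 for TGF-β2 in ES-motor neurons and 3 in the interaction of C1Q with C5. In ES-motor neurons with TGF-β2 it called 4 with the replicate block and 2 with total counts, and without the libraries of many genes 3 in the interactions of IL-1α with TNF-α and of TGF-β2. Leaving out 1 library gave at most 2 for C1Q with C5 (without control D) and for TGF-β2 in ES-motor neurons, and at most 2, 2, 2 and 4 in the interactions. No isotype was called in any stimulus or interaction comparison under any of these, and the block changed no isotype call there.

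Leaving out those 9 libraries could not be run for IL-1α with TNF-α in ES-motor neurons and its interaction, where a group has no library left. The limits of 3 counts, up to 202 CPM in ES-motor neurons, restrict what can be said of *Tuba1c* and *Tubb6* in these cells.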
